A study of Mus musculus with 63 samples.

Results

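RNA-seq libraries of whole mouse embryos at embryonic day 9.5 (E9.5) were compared between *Chaserr*+/- and WT. They are the 6 libraries that the labels title as Het or WT at E9.5, with 3 libraries of each genotype, out of 63 samples in the series. A further 6 libraries, from E13.5 embryos (3 *Chaserr*+/- and 3 WT), were used only for the comparison between stages. The *Chaserr* null allele was made by CRISPR/Cas9 in CB6F1 Ola HSD mice, with 4 single-guide RNAs (sgRNAs), and lacks the promoter and the first exon. Carriers of 2 founder lines were backcrossed to C57BL/6 Ola HSD. The WT libraries carry no named allele, and no group received an agent. The sources used here do not give the founder line, litter or sex of an embryo, nor whether a library holds 1 embryo or a pool, so p-values measure the spread between these samples only.

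*Chaserr* makes a long noncoding RNA, and its neighbour in the direction of transcription is *Chd2*. *Chd2* encodes a chromatin remodeller of the CHD family, which uses ATP to move nucleosomes, and loss of a single copy of the human gene causes epilepsy and neurodevelopmental disorders. The mouse embryo at this age has a looped, beating heart, primitive red cells from the yolk sac that carry embryonic globins, somites that are added at the tail end, and a closing neural tube in which the earliest neurons arise. *Hox* genes are switched on in sequence from low to high paralogue numbers as the body axis lengthens.

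The sgRNAs are shown because they set the limits of the deleted stretch. The lower-case letters are the guide, and the capitals are the adjacent PAM as read from the mm9 genome on the strand of the guide.
sgRNA 1: cggtccgagccagcggggagAGG
sgRNA 2: gaggtgggaacccatctttgGGG
sgRNA 3: agtgaaactctgggtttgcgGGG
sgRNA 4: tgctgagaacatggaagcggTGG
The targets of sgRNA 3 (chr7:80703696-80703715, plus strand) and sgRNA 4 (chr7:80703600-80703619, minus strand) lie 424 and 328 bases before the *Chaserr* start. Those of sgRNA 1 (chr7:80702699-80702718, minus strand) and sgRNA 2 (chr7:80702568-80702587, minus strand) lie 573 and 704 bases after it, in the first intron. The outermost guides span 1148 bases. Between them lies the *Chaserr* promoter, taken from RefSeq (GRCm38.p6, chr7:73558346-73558645, minus strand), which holds 250 bases before the start in lower case and the 50 transcribed bases in capitals.
*Chaserr* promoter: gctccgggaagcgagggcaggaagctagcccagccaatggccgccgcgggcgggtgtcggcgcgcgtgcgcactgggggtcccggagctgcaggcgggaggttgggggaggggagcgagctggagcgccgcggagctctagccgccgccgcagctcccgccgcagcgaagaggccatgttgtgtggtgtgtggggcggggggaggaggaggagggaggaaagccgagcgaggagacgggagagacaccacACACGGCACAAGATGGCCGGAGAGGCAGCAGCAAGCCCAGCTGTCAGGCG
This stretch has 1 match in mm9, at chr7:80703232-80703531. The annotated *Chd2* start (mm9 chr7:80571577-80686632, minus strand) lies 16649 bases further along the same strand. Which guides made each founder deletion is not given for these embryos.

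The total expected count was between 25553729 and 27288777 in the WT libraries and between 21589962 and 31293072 in the *Chaserr*+/- libraries. Of 24990 rows, 14500 passed the filter on low counts and were tested. One *Chaserr*+/- library, Het 3, stood apart from the others. It lay at 50.1 on the first principal component of log2 CPM (counts scaled to the size of each library), which held 41.9% of the variance, and the other 5 libraries lay between -16.7 and -5.7. Of 12033 genes with an FPKM of at least 1, 273 differed at least 2-fold in Het 3 from the mean of the other 5 libraries, 220 of them lower. The same count was 70, 58 and 97 in WT 1 to 3, and 85 and 88 in Het 1 and Het 2. The biological coefficient of variation was 0.0871 over the WT libraries, 0.157 over the *Chaserr*+/- libraries and 0.124 over all 6, and was 0.0852 without Het 3. The sex of the embryos was also unequal. *Xist*, the RNA that silences the inactive X chromosome, was at 2030 CPM in WT 2, 1937, 2307 and 2096 CPM in Het 1 to 3, and 0.496 and 0.253 CPM in WT 1 and WT 3. The Y-linked genes *Ddx3y*, *Eif2s3y*, *Kdm5d* and *Uty* were at 38.3 to 68.6 CPM in WT 1 and WT 3 and at 0.0784 CPM or less in the other 4 libraries. All 3 *Chaserr*+/- libraries therefore had the *Xist* and Y-linked levels of female embryos, and 1 of 3 WT libraries did, so sex and genotype cannot be fully told apart.

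The deletion was checked first in its target. *Chaserr* was at 16.5, 15.2 and 17.8 CPM in WT and at 8.29, 10.8 and 8.19 CPM in *Chaserr*+/- embryos. All *Chaserr*+/- libraries lay below all WT libraries, at 0.552 of the WT mean, in the direction of the labels. The log2 fold change was -0.86 ± 0.13 (SE, n = 3 per genotype, edgeR, adjusted p = 1.0). *Chd2* was at 121, 117 and 113 CPM in WT and at 180, 201 and 174 CPM in *Chaserr*+/- embryos. The genotypes did not overlap, and the *Chaserr*+/- mean was 1.58 times the WT mean. The log2 fold change of *Chd2* was 0.66 ± 0.0618 (SE, n = 3 per genotype), which ranked first of all genes by edgeR and had an adjusted p = 0.104. DESeq2 gave adjusted p-values of 4.07e-17 for *Chd2* and 4.23e-05 for *Chaserr*. The two-sided exact permutation test gave p = 0.1 for both genes, the smallest that 3 against 3 libraries allow. Without Het 3, *Chd2* was at 0.71 on the log2 scale and passed the edgeR test (adjusted p = 0.00439).

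**Figure D1:**
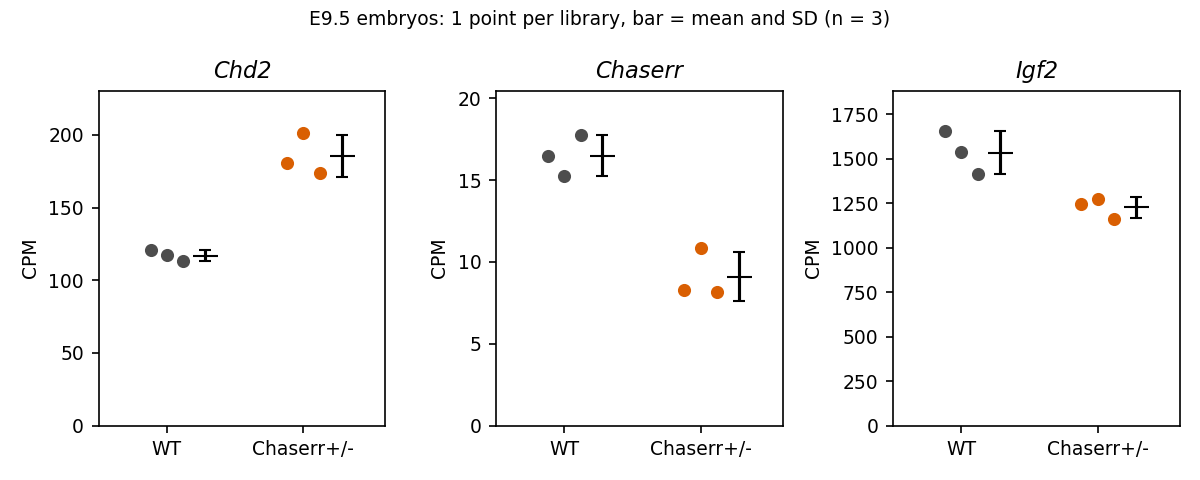
*Chd2*, *Chaserr* and *Igf2* in E9.5 embryos, in CPM on axes from 0, with 1 point per library and the mean and SD (n = 3) of each genotype beside the points. The *Chaserr*+/- points lie above the WT points for *Chd2* and below them for *Chaserr* and *Igf2*, with no overlap.

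The other CHD remodellers and the neighbours of *Chd2* had smaller fold changes. Of the 10 *Chd* genes, *Chd2* alone had an unadjusted p under 0.05 (3.12% of all genes did). The log2 fold changes of the others were at or above -0.12 and below 0.03. *Chd4*, a subunit of the NuRD complex, was at 795, 797 and 819 CPM in WT and 733, 739 and 841 CPM in *Chaserr*+/- embryos, with overlap. *Chd8* was at 219, 227 and 216 CPM in WT and 213, 215 and 207 CPM in *Chaserr*+/- embryos, which did not overlap but differed by only -0.06 on the log2 scale (adjusted p = 1.0, edgeR). Around the locus, *Rgma*, *Fam174b*, *St8sia2*, *Slco3a1*, *Mctp2* and *Nr2f2* had log2 fold changes between -0.13 and 0.07, and their genotypes overlapped. *Nr2f2*, an orphan nuclear receptor, was at 113, 111 and 106 CPM in WT and 92.5, 108 and 111 CPM in *Chaserr*+/- embryos.

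Over all genes, no gene passed the adjusted threshold of 0.05 with edgeR (0.0% of 14500). An unadjusted p under 0.05 was found for 453 genes (3.12%), with 226 higher (1.56%) and 227 lower (1.57%) in *Chaserr*+/- embryos. The median log2 fold change was -0.000222, and 90 of 100 genes lay between -0.314 and 0.209 (5th and 95th percentiles). The *Chaserr*+/- libraries lay all above the WT libraries for 774 genes (5.34%) and all below for 621 (4.28%). A fold change of at least 2 either way was found for 44 genes (0.303%). DESeq2, the tool of the study, called 5 of 19069 genes (0.0262%), and limma-voom called 1. The DESeq2 calls were *Chd2*, *Chaserr*, *Igf2* and 2 rows of repeated genes, *Gm5512* and *Gm4724*.

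*Igf2*, the paternally expressed growth factor that drives growth of the embryo and placenta, was the third single-copy gene called by DESeq2. It was at 1656, 1538 and 1412 CPM in WT and at 1247, 1274 and 1159 CPM in *Chaserr*+/- embryos (mm9 chr7:149836673-149852721, minus strand). The lowest WT library was above the highest *Chaserr*+/- library. The log2 fold change was -0.32 ± 0.0662 (SE, n = 3 per genotype, adjusted p = 1.0 with edgeR), and *Igf2* fell by DESeq2 (adjusted p = 0.00563). The value was -0.28 without Het 3 and -0.33 with Y-linked RNA as a covariate. *Igf2r*, the maternally expressed receptor that clears IGF2, was at 492, 472 and 486 CPM in WT and at 458, 430 and 319 CPM in *Chaserr*+/- embryos. These did not overlap either, and the lowest was Het 3 (adjusted p = 1.0, edgeR). At E13.5 the log2 fold change of *Igf2* was 0.03, and the difference between stages did not pass the adjusted threshold (adjusted p = 0.963, edgeR).

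The 2 rows of repeated genes had no count at all in 1 genotype. The *Gm5512* row was at 0 counts in each WT library and at 30.2, 34.6 and 29.3 counts in *Chaserr*+/- embryos, at least 32.1-fold higher against a floor of 3 counts over the WT libraries. At E13.5 the same row had 27.8 to 49.6 counts in all 6 libraries. The *Gm4724* row was at 1.22, 6.90 and 7.35 CPM in WT and at 0 counts in *Chaserr*+/- embryos, at least 138-fold lower against a floor of 3 counts over these libraries. At E13.5 that row had at most 0.02 counts in WT and 42.8, 415 and 0 counts in *Chaserr*+/- embryos, so the direction was not the same. Both belong to families of near-identical copies between which RSEM divides reads, so these values are uncertain. Of the 10 rows with the largest spread within a genotype, 8 were repeated zinc-finger genes (*Gm14308*, *Gm14440*, *Zfp966*, *Gm14296*, *2210418O10Rik* and *Gm4724*), each of which was well above 0 in some libraries of both genotypes and at 0 in others. The other 2 were *Xist* and *Hormad1*.

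Beside *Chaserr*, the single-copy gene with the smallest p among those lower in *Chaserr*+/- embryos was *Zfhx3*, a homeobox and zinc-finger transcription factor. *Zfhx3* was at 42.2, 39.6 and 38.3 CPM in WT and 30.9, 32.8 and 32.2 CPM in *Chaserr*+/- embryos, without overlap (log2 fold change -0.33 ± 0.0598, SE, adjusted p = 1.0, edgeR). *Crebbp*, a histone acetyltransferase and coactivator, was at 78.5, 80.6 and 74.8 CPM against 67.6, 68.1 and 65.9 CPM. This was a log2 fold change of -0.21, again without overlap. *Rbms3*, *Adgra2* (a receptor of WNT7 signalling in brain vessels), *Cd248* (a surface protein of mesenchyme and pericytes) and the joined row of the alpha and gamma protocadherins differed by -0.34 to -0.17, and *9130019O22Rik* by -0.55. Among the higher genes, *Sub1*, a transcriptional coactivator, was at 260, 261 and 259 CPM in WT and 293, 283 and 303 CPM in *Chaserr*+/- embryos (0.17). *Ppt1*, a lysosomal thioesterase, was at 40.1, 40.3 and 40.7 CPM against 46.0, 45.0 and 47.8 CPM (0.20). *Ttc27*, *Mthfs*, *Xlr3b*, *Gm9833*, *5530601H04Rik* and the rows holding *Dancr* and *Zfp967* were also among the 10 higher genes with the smallest p that had a mean FPKM of at least 1 and no overlap, with unadjusted p-values from 0.00363 to 0.00513. None of these genes passed after adjustment by edgeR or DESeq2. *Xlr3b* and *5530601H04Rik* lie on the X chromosome. Sex was unequal between the genotypes, so for both genes sex and genotype cannot be fully told apart.

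Heart genes showed the widest spread of all tissue programmes. Of 37 heart genes tested, 0 had an unadjusted p under 0.05, although all 37 had a log2 fold change below 0 and their median was -0.52. Every one of the 37 was lowest in Het 3. The summed CPM of the list was 3019, 3139 and 3896 in WT 1 to 3, 3793 and 2784 in Het 1 and Het 2, and 521 in Het 3. Without Het 3, the median was -0.0067, with 16 genes above and 21 below 0. The heart difference therefore rested on 1 library.

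Within Het 3, the heart genes were not all equally low. *Nppa*, the atrial natriuretic peptide of working myocardium, was at 18.9, 17.6 and 31.1 CPM in WT, 20.3 and 18.3 CPM in Het 1 and Het 2, and 0 in Het 3. *Myl2*, the ventricular myosin light chain, was at 62.0 to 82.9 CPM in the other 5 libraries and at 0.187 CPM in Het 3. *Myh6*, the alpha myosin heavy chain, was at 296 to 405 CPM in the other 5 and at 5.50 CPM in Het 3. *Nppa* and *Myl2* were thus at or near 0 there, and *Myh6* was low but detected. *Tnnt2*, cardiac troponin T, was at 85.8, 93.3 and 111 CPM in WT and at 110, 73.3 and 5.24 CPM in *Chaserr*+/- embryos. *Actc1*, cardiac alpha actin and by FPKM the most abundant gene of the list, was at 451, 431 and 603 CPM in WT and at 593, 396 and 17.2 CPM in *Chaserr*+/- embryos. Het 1 lay within or above the WT range for both genes. The cardiac transcription factors were less reduced. *Tbx20* was at 5.91 CPM in Het 3 against 42.4 to 52.4 CPM elsewhere, *Gata4* at 12.3 against 32.3 to 39.3 CPM, and *Nkx2-5* at 1.31 against 5.38 to 8.10 CPM. *Hand2* was at 10.2 against 16.1 to 23.5 CPM. In proportion, *Mef2c* (38.7 against 42.4 to 49.6 CPM) and *Tpm1*, tropomyosin 1 (252 against 369 to 444 CPM), were nearer to the other libraries than the genes above. Other tissues also use both.

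*Tbx5*, a factor of the atria and forelimb bud, was the only heart gene whose genotypes did not overlap (9.62% of all genes tested did not overlap). It was at 16.0, 16.6 and 13.1 CPM in WT and at 11.3, 13 and 5.65 CPM in *Chaserr*+/- embryos (-0.61 ± 0.274, SE, adjusted p = 1.0, edgeR). The gap between the genotypes was narrow, and Het 3 was again the lowest. In bulk libraries such as these, fewer cells of a type and less RNA per cell cannot be told apart. Whether the sample of Het 3 held the whole heart is not given in the sources used here and was not tested, which limits every heart value of that library. Endothelial genes were at similar levels in all 6 libraries, with a summed CPM of 480, 540 and 541 in WT and 543, 488 and 467 in *Chaserr*+/- embryos. *Cdh5*, VE-cadherin, was at 78.1, 87.3 and 83.6 CPM in WT and 86.1, 76.4 and 70.6 CPM in *Chaserr*+/- embryos, and 0 of 18 endothelial genes had an unadjusted p under 0.05 (median -0.080).

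**Figure D2:**
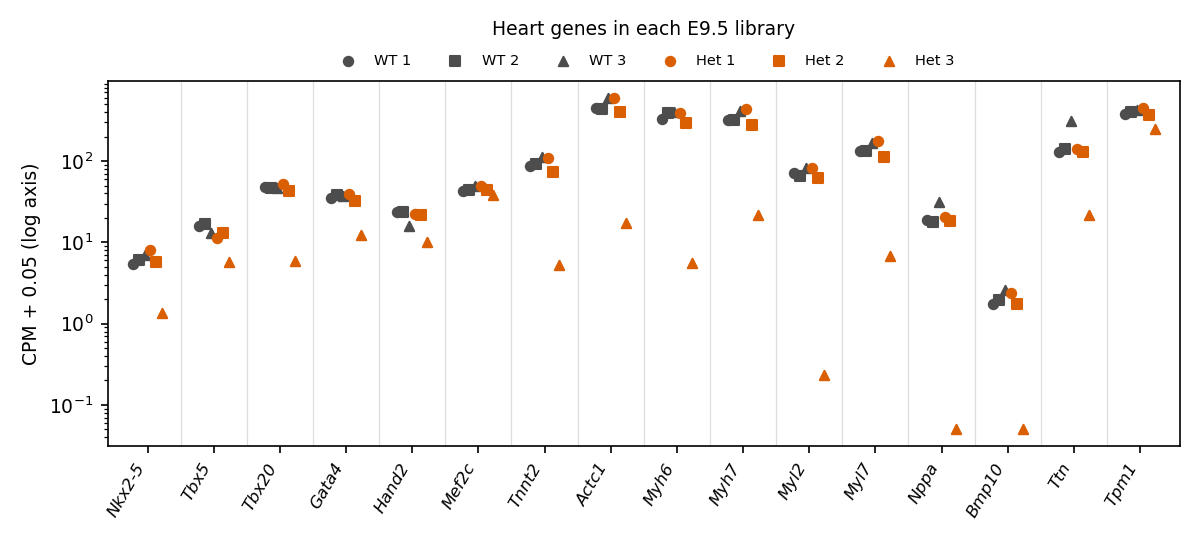
The levels of 16 heart genes in the 6 E9.5 libraries, in CPM plus 0.05 on a log axis, with 1 symbol per library. Het 3 (orange triangles) is the lowest library for each gene, from 252 CPM for *Tpm1* down to 0 for *Nppa*. The other 5 libraries lie close together for many genes but not for all. *Ttn* is at 311 CPM in WT 3 and at 128 to 139 CPM in WT 1, WT 2, Het 1 and Het 2.

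Erythroid RNA varied between libraries of the same genotype. *Hbb-bh1*, an embryonic beta globin, was at 1525, 1436 and 822 CPM in WT and at 1125, 2083 and 546 CPM in *Chaserr*+/- embryos. *Hbb-y*, the other embryonic beta globin and by FPKM the most abundant of the list, was at 1924, 1973 and 950 CPM in WT and at 1340, 2653 and 585 CPM in *Chaserr*+/- embryos. For both, Het 2 was highest, Het 3 lowest and WT 3 second lowest, so the genotypes overlapped. *Hba-x*, the zeta globin, was also highest in Het 2 and lowest in Het 3 (1198, 1276 and 682 CPM against 919, 1523 and 441 CPM). *Gata1*, the master regulator of red cells, was at 6.45, 6.86 and 4.38 CPM in WT and 5.86, 8.44 and 3.10 CPM in *Chaserr*+/- embryos. Het 2 was again highest and Het 3 lowest. Over the list, 31 of 37 genes were highest in Het 2 and 32 were lowest in Het 3, 0 had an unadjusted p under 0.05, and the median log2 fold change was -0.011. The summed CPM was 6818, 6942 and 4001 in WT and 5286, 8898 and 2891 in *Chaserr*+/- embryos. The median moved to 0.26 without Het 3 and to -0.36 without Het 2, so its sign depended on the libraries kept.

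Somite genes were lowest in Het 1. The list held 24 tested genes of the dermomyotome, sclerotome and early muscle, of which 0 had an unadjusted p under 0.05, and its median log2 fold change was -0.048. *Meox1*, a homeobox gene of the sclerotome and by FPKM the most abundant of the list, was at 64.5, 60.9 and 49.5 CPM in WT and at 38.5, 58.6 and 72.6 CPM in *Chaserr*+/- embryos. Het 1 was the lowest of the 6 and Het 3 the highest. *Aldh1a2*, which makes retinoic acid in the somites, was at 54.4, 50.8 and 45.4 CPM in WT and at 26.4, 46.7 and 65.8 CPM in *Chaserr*+/- embryos, in the same order. *Uncx*, a marker of the posterior part of each somite, was at 1.68, 2.59 and 1.27 CPM in WT and at 0.384, 1.94 and 1.91 CPM in *Chaserr*+/- embryos. Of the 24 genes, 14 were lowest in Het 1, and without that library the median was 0.061. The skeletal muscle regulators were low throughout, with *Myf5* at 1.22 to 2.92 CPM and *Myod1* below 0.05 CPM in each library.

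Genes of the presomitic mesoderm did not mark this tissue well in any library. *Tbx6* was at 0.112 to 0.392 CPM, *Mesp2* at 0.224 CPM or less, *Hes7* at 0.112 CPM or less, and *Msgn1* had at most 0.0362 CPM. These defining genes of the unsegmented tail mesoderm were at or near 0 in both genotypes. Of 25 listed genes, 17 were tested, and these are mostly Notch and Wnt genes that other tissues share, such as *Lfng* (28.3, 27.7 and 35.8 CPM against 30, 28.4 and 33.2 CPM) and *Axin2*. *Nkd1*, a feedback inhibitor of Wnt signalling, was the only one with an unadjusted p under 0.05 (44.8, 44.7 and 41.5 CPM in WT, 40.4, 37.2 and 40.4 CPM in *Chaserr*+/- embryos, adjusted p = 1.0). Among all genes, 1.57% were lower at this p. The median of the list was -0.061.

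Neural progenitor genes were close to even between genotypes. Of 34 tested, 0 had an unadjusted p under 0.05, 22 lay above and 12 below 0, and the median was 0.043. Without Het 3 the median was -0.067, with 12 above and 22 below 0, so its sign depended on that library. *Sox2*, a factor that maintains progenitors, was at 86.0, 87.8 and 91.2 CPM in WT and at 87.4, 84.2 and 109 CPM in *Chaserr*+/- embryos. Het 3 was the highest library for *Sox2*, and also for 17 of the 34 genes. *Pax6* was at 47.9, 48.0 and 48.3 CPM in WT and 49.4, 47.8 and 51.3 CPM in *Chaserr*+/- embryos. *Nes*, nestin and by FPKM the most abundant of the list, was at 355, 329 and 375 CPM against 352, 363 and 303 CPM and went the other way, with Het 3 lowest. *Gbx2*, a hindbrain gene, was the only progenitor gene without overlap (6.91, 6.98 and 6.95 CPM against 7.07, 7.52 and 9.42 CPM, adjusted p = 1.0). Of all genes tested, 9.62% did not overlap.

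Early neuron genes were lower in Het 3 and Het 1 than in the other *Chaserr*+/- library. *Tubb3*, neuronal beta tubulin, was at 63.0, 56.9 and 54.5 CPM in WT and at 47.0, 62.8 and 29.1 CPM in *Chaserr*+/- embryos. Het 2 lay at the top of the WT range and Het 3 was lowest. *Dcx*, doublecortin of migrating neurons, was at 14.1, 11.2 and 10.9 CPM in WT and at 9.60, 18.4 and 4.15 CPM in *Chaserr*+/- embryos, with Het 2 above all WT libraries and Het 3 again lowest. Of 34 genes tested, 29 had a log2 fold change below 0, 22 were lowest in Het 3 and 15 were highest in Het 2. The median was -0.17, and it was -0.041 without Het 3 and -0.36 without Het 2. Without Het 2, 14 of the 34 were lower at an unadjusted p under 0.05. In that fit, 796 of 14678 genes reached this p in either direction. With all libraries, *Insm1*, a zinc-finger factor of newborn neurons, was the only gene with an unadjusted p under 0.05 (6.11, 5.06 and 6.91 CPM against 4.38, 4.93 and 4.79 CPM, adjusted p = 1.0). In that fit, 1.57% of all genes were lower at this p. The proneural genes *Neurog1* and *Neurog2* had log2 fold changes of -0.16 and -0.15, and their genotypes overlapped.

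**Figure D3:**
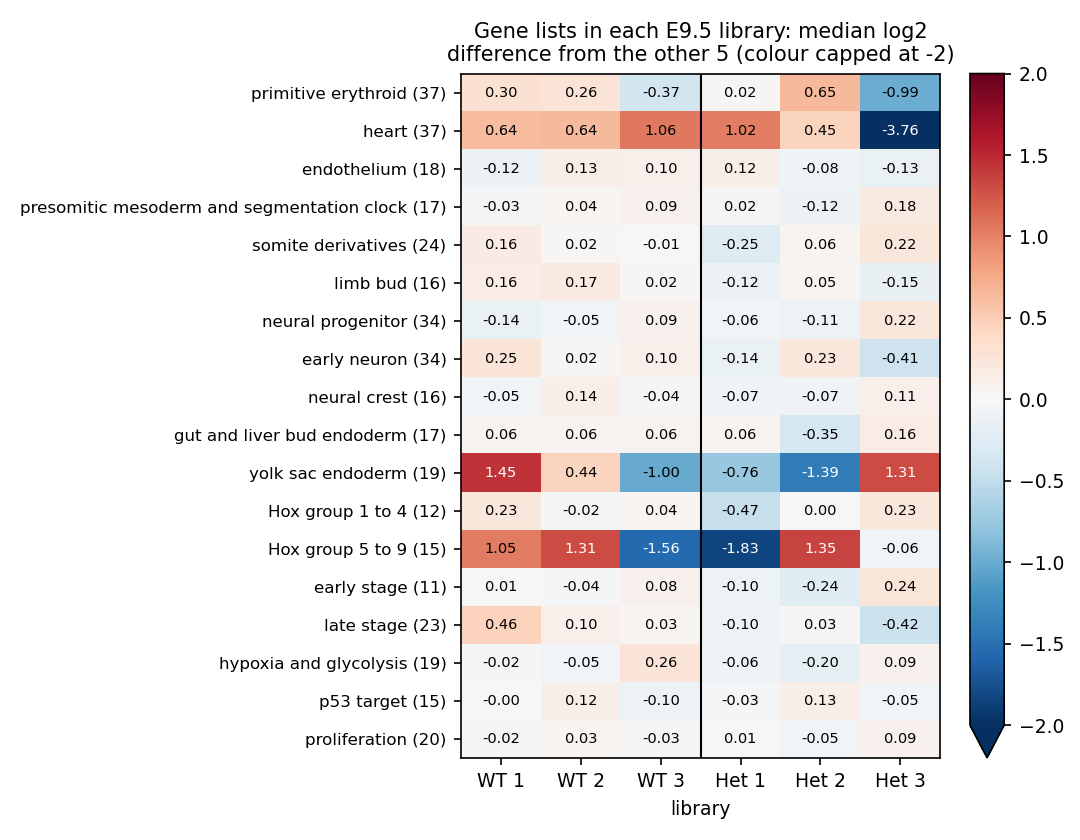
Each cell gives the median, over the tested genes of a list (their number in brackets), of the log2 difference between that library and the mean of the other 5 E9.5 libraries. Heart genes in Het 3 are the lowest at -3.76, and *Hox* groups 5 to 9 split the libraries of both genotypes, with WT 3 and Het 1 low.

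The stage of the embryos was read from genes whose level moves with age. The ratio of *Hbb-bh1* to *Hbb-y* was 0.792, 0.728 and 0.866 in WT and 0.840, 0.785 and 0.932 in *Chaserr*+/- E9.5 embryos, against 0.0130, 0.0158 and 0.0130 in E13.5 WT embryos. The ratio of adult alpha globins to *Hba-x* was 0.738, 0.750 and 0.689 in WT and 0.718, 0.737 and 0.707 in *Chaserr*+/- embryos, against 39.2, 40.2 and 20.7 in E13.5 WT embryos. All 6 libraries were far from E13.5 on both ratios, in the direction of the labelled age, and the genotypes overlapped. *Lin28a*, an RNA-binding protein of early embryos, was at 389, 411 and 474 CPM in WT and 467, 346 and 622 CPM in *Chaserr*+/- embryos, and was highest in Het 3. The early-stage list had a median log2 fold change of 0.015 over 11 genes, of which 8 were highest in Het 3. Without Het 3 the median was -0.14, with 11 of 11 genes below 0 and 3 lower at an unadjusted p under 0.05. In that fit, 721 of 14649 genes reached this p in either direction. In the whole list, 10 of 14 rows were lower in E13.5 WT embryos.

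*Hox* genes separated the libraries within each genotype. *Hoxb9*, by FPKM the most abundant of groups 5 to 9 (mm9 chr11:96132771-96137909, plus strand), was at 53.4, 43.3 and 7.49 CPM in WT and at 1.6, 39.7 and 36.0 CPM in *Chaserr*+/- embryos. WT 3 and Het 1 were low and the other 4 libraries high. *Hoxa9* was at 7.52, 7.96 and 0.253 CPM in WT and 0.192, 8.21 and 1.57 CPM in *Chaserr*+/- embryos, with Het 3 in between. The summed CPM of the 15 genes of groups 5 to 9 was 152, 136 and 41.1 in WT and 26.4, 136 and 90.5 in *Chaserr*+/- embryos. Groups 10 to 13 reached 5.65, 3.45 and 6.18 CPM in sum in WT 1, WT 2 and Het 2 and stayed at or below 0.289 CPM in the other 3 libraries. At E13.5 all 12 genes of these groups were higher in WT embryos than at E9.5. Groups 1 to 4, which mark the hindbrain and neck, had summed CPM of 202, 184 and 185 in WT and 141, 189 and 208 in *Chaserr*+/- embryos. Het 1 was the lowest library for 10 of these 12 genes, and their median log2 fold change of -0.14 became 0.074 without it.

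**Figure D4:**
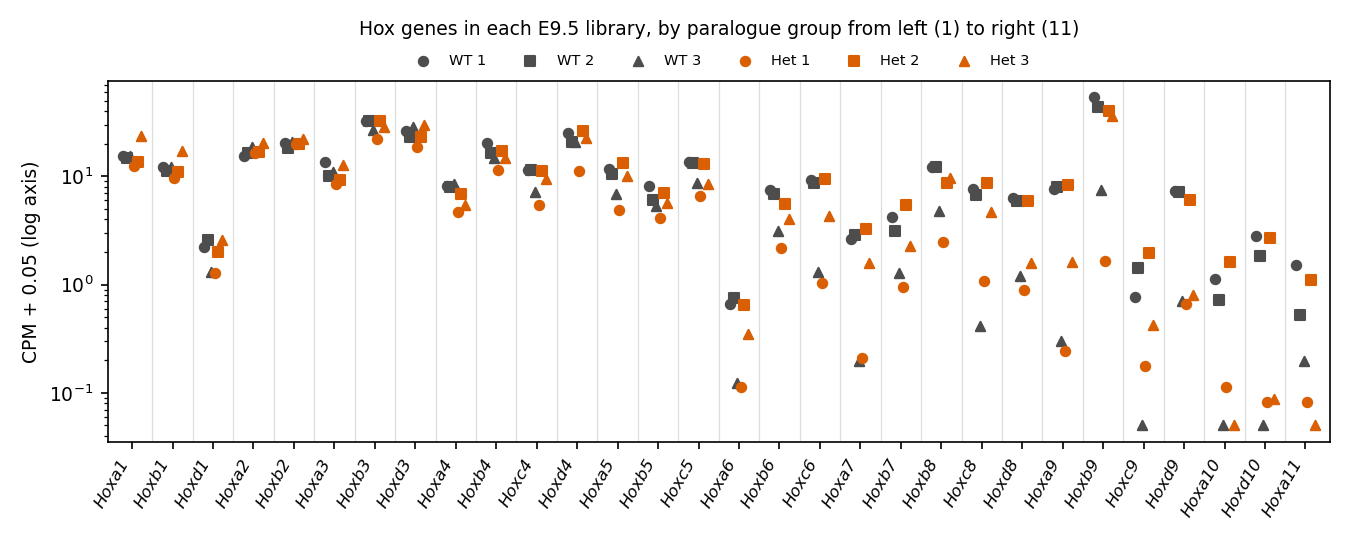
*Hox* genes in the 6 E9.5 libraries, from paralogue group 1 on the left to group 11 on the right, in CPM plus 0.05 on a log axis. WT 3 and Het 1 are low in groups 6 to 9, with *Hoxb9* at 7.49 and 1.6 CPM, and in groups 10 and 11 Het 3 is as low as they are.

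With 1 library of each genotype low, *Hox* groups 5 to 9 held no gene with an unadjusted p under 0.05 (median -0.39, -0.031 without Het 1 and -0.85 without WT 3). In groups 1 to 4, *Hoxa4* was the only one, at 8.02, 7.96 and 8.43 CPM in WT and 4.61, 6.82 and 5.42 CPM in *Chaserr*+/- embryos, without overlap (-0.54 ± 0.155, SE, adjusted p = 1.0, edgeR). Among all genes, 1.57% were lower at this p and 4.28% were lower without overlap. The late-stage list, which holds genes of cartilage, muscle, connective tissue and liver, had a median of -0.32 over 23 genes, of which 21 lay below 0. Its summed CPM was 1046, 890 and 828 in WT and 787, 743 and 617 in *Chaserr*+/- embryos. Het 3 was lowest there, so this list and *Hox* groups 5 to 9 did not order the libraries alike. How much trunk and tail tissue each sample held is not given in the sources used here and was not tested. *Col1a1*, collagen of bone and connective tissue, was at 337, 222 and 148 CPM in WT and at 166, 90.4 and 75.3 CPM in *Chaserr*+/- embryos (-1.09, adjusted p = 1.0). WT 3 lay below Het 1, so the genotypes overlapped. *Lum* (73.2, 51.8 and 42.2 CPM against 46.7, 34.3 and 36.1 CPM) and *Dcn* (7.79, 5.80 and 4.02 CPM against 4.70, 3.41 and 3.44 CPM), small proteoglycans of connective tissue, were the other 2 of the 23 with an unadjusted p under 0.05 (1.57% of all genes were lower at this p). Both are also among the decidua genes listed, and WT 1 was their highest library. The median of the late-stage list was -0.16 without WT 1 and -0.094 without Het 3. At this p, 0 of its genes were lower without WT 1, and 0 with Y-linked RNA as a covariate. It was 1 gene without WT 2 or Het 3, and 4 genes without WT 3 or Het 2.

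RNA of yolk sac endoderm varied between libraries. The summed CPM of its 19 genes was 523, 312 and 204 in WT and 232, 181 and 452 in *Chaserr*+/- embryos, with WT 1 and Het 3 highest. *Afp*, alpha-fetoprotein and by FPKM the most abundant of the list, was at 101, 57.8 and 25 CPM in WT and at 32.1, 29.3 and 53.2 CPM in *Chaserr*+/- embryos. *Cubn*, the endocytic receptor cubilin, was at 59.9, 23.0 and 6.62 CPM in WT and 4.74, 3.37 and 52.1 CPM in *Chaserr*+/- embryos, and *Apoa4* was at 5.31, 2.08 and 0.253 CPM against 0.224, 0.231 and 5.20 CPM. With all libraries, no gene of the list had an unadjusted p under 0.05. The median of -0.42 became 0.21 without WT 1 and -1.15 without Het 3. Without Het 3, 9 of the 19 genes were lower at this p, where 721 of 14649 genes reached it in either direction. It was 3 lower genes without WT 3 and 1 higher gene without Het 2, so the count also depended on the libraries kept. Het 3, the library with the lowest heart RNA, was thus also the one *Chaserr*+/- library with much yolk sac RNA. Whether the 2 are related was not tested.

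Defining genes of other cell types that could accompany an embryo were at low levels. The trophoblast genes *Tpbpa* and *Prl3d1* were at 0.109 CPM or less, the decidual *Prl8a2* at 0.47 CPM or less, and the leukocyte gene *Csf1r* at 0.76 to 1.38 CPM in each library. *Peg10*, which the embryo also expresses, made up most of the trophoblast sum. The 12 decidua genes, which include *Lum* and *Dcn* and are not all specific to maternal tissue, had a summed CPM of 224, 199 and 192 in WT and 205, 175 and 133 in *Chaserr*+/- embryos. The median log2 fold change of the 11 tested was -0.21, with 8 below 0 and 2 lower at an unadjusted p under 0.05 (1.57% of all genes). It was -0.093 without Het 3 and -0.13 without WT 1, with none at this p in either case. Neural crest (16 genes, median -0.0096), limb bud (16 genes, -0.13), gut and liver bud (17 genes, -0.089), intermediate mesoderm (11 genes, -0.026) and optic and otic placodes (13 genes, 0.014) had at most 1 gene each with an unadjusted p under 0.05. That gene was *Prox1* in the gut and placode lists, which share it (10.3, 10.3 and 11.4 CPM in WT, 9.02, 9.36 and 6.28 CPM in *Chaserr*+/- embryos, adjusted p = 1.0).

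Genes that respond to handling and growth were also compared. All 19 genes of hypoxia and glycolysis tested had a log2 fold change below 0, with a median of -0.094, which was -0.016 without WT 3. With Y-linked RNA as a covariate it was -0.0036, with 9 genes above and 10 below 0. Of these 19 genes, 18 were highest in WT 3 and 12 were lowest in Het 2. Of 17 immediate early and heat shock genes, 12 lay below 0, 3 were lower without overlap (4.28% of all genes), and the median was -0.13, or -0.046 without WT 3. *Ndrg1*, a stress gene of the hypoxia list, was at 8.02, 6.51 and 7.85 CPM in WT and 5.70, 5.72 and 6.10 CPM in *Chaserr*+/- embryos (adjusted p = 1.0). The immediate early gene *Egr1* was at 3.90, 4.51 and 4.56 CPM against 3.62, 3.14 and 3.33 CPM (adjusted p = 1.0). Both were without overlap, and neither passed after adjustment. The p53 targets (15 genes, median 0.010) and proliferation genes (20 genes, 0.037) held none with an unadjusted p under 0.05. Of the proliferation genes, 4 were higher and 1 lower without overlap (5.34% and 4.28% of all genes). *Mki67* was at 1076, 1127 and 928 CPM in WT and 1008, 1073 and 875 CPM in *Chaserr*+/- embryos.

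Several genes differed over 2-fold between libraries of the same genotype, and some of them were absent from 1 or more libraries. These were chosen after their values were seen. *Mmrn1*, a platelet and endothelial protein that the C57BL/6 Ola HSD strain is known to lack, was at 8.44, 9.09 and 9.01 CPM in WT. In *Chaserr*+/- embryos it was at 0 in Het 1 and Het 2 and at 7.85 CPM in Het 3. *Ahcy*, which breaks down S-adenosylhomocysteine, was at 382, 400 and 380 CPM in WT and at 145, 156 and 412 CPM in *Chaserr*+/- embryos. *Gm4737*, a predicted gene much like it, was at 42.0, 44.6 and 32.2 CPM in WT and at 309, 283 and 36.1 CPM in *Chaserr*+/- embryos. Het 1 and Het 2 again differed from the other 4 libraries. The sum of both was 424, 444 and 413 CPM in WT and 453, 439 and 448 CPM in *Chaserr*+/- embryos, and 93.6% of the 31-mers of *Gm4737* also occur in *Ahcy* transcripts, so the division of reads between them is uncertain. *Hormad1*, a meiotic chromosome protein, was at 41.9, 0 and 37.6 CPM in WT and 37.9, 48.0 and 0 CPM in *Chaserr*+/- embryos, and so was absent from 1 library of each genotype. *Dynlt1b* (1.34, 1.49 and 15.3 CPM against 1.41, 1.38 and 14.1 CPM) was high in 1 library of each. Without Het 3, edgeR called 6 genes, which were *Chd2*, *Ahcy*, *Gm4737*, *Mmrn1*, *Capn11* and 1 further row without a symbol. Without WT 2 it called 5, *Xist* and the 4 Y-linked genes.

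**Figure D5:**
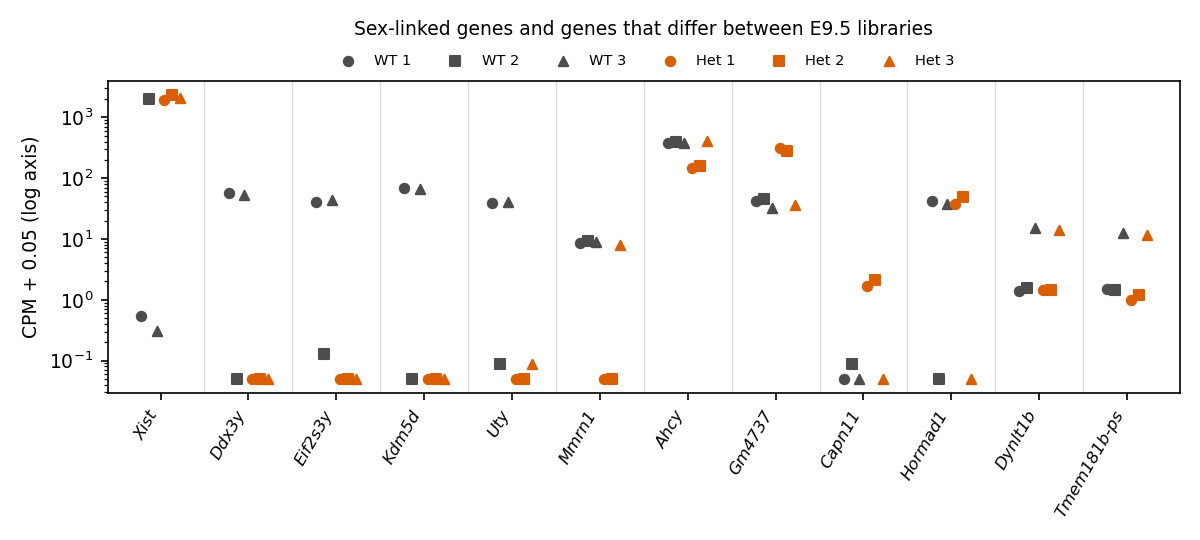
Sex-linked genes and genes that differed over 2-fold between E9.5 libraries of 1 genotype, in CPM plus 0.05 on a log axis, with 1 symbol per library. WT 1 and WT 3 have Y-linked RNA and almost no *Xist*, and Het 1 and Het 2 lack *Mmrn1* and have low *Ahcy* beside high *Gm4737*.

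The effect of genotype was compared with that at E13.5 in a fit of both stages. At E13.5 alone, 5 of 15946 genes were called (0.0314%). The interaction passed the adjusted threshold for 2 of 16173 genes (0.0124%), with 642 at an unadjusted p under 0.05 (3.97%). *Chd2* was not among them. Its log2 fold change was 0.66 at E9.5 and 0.78 at E13.5, and the difference was -0.11 ± 0.0776 (SE, adjusted p = 0.963). *Chaserr* was at -0.86 and -0.61 (difference -0.24 ± 0.249, adjusted p = 0.963). The 2 genes were *AI506816*, at 81.3 to 128 counts in all E9.5 libraries, 22 to 31.1 counts in E13.5 WT and 712 to 776 counts in E13.5 *Chaserr*+/- embryos, and the *Gm5512* row described above.

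The study also asked how genes close behind another gene of the same orientation respond. For genes whose start follows within 2 kb, with the upstream gene at 10 FPKM or more (a limit chosen here), the median log2 fold change at E9.5 was 0.000733 over 330 genes, with 4 higher and 4 lower at an unadjusted p under 0.05 (1.56% and 1.57% of all genes). It was -0.00139 over 10720 genes more than 10 kb from an upstream gene, with 163 higher and 176 lower. Of 11 genes the study names from other samples, *Cct6a*, a chaperonin subunit, was the only one with an unadjusted p under 0.05 (747, 732 and 724 CPM in WT, 781, 774 and 819 CPM in *Chaserr*+/- embryos, adjusted p = 1.0). Among all genes, 1.56% were higher at this p. The 11 are not all genes close behind another. *Cct6a* (mm9 chr5:130293315-130321696, plus strand) ends before *Sumf2* starts at 130322866 on the same strand. It is therefore the upstream gene of that pair. *Actb*, also among the 11, was the reference gene of the study's qRT-PCR. *Ctsk*, the protease cathepsin K, had the largest fold change of the 11 (0.802, 0.627 and 0.868 CPM in WT, 0.384, 0.692 and 0.374 CPM in *Chaserr*+/- embryos, -0.69 ± 0.327, SE, adjusted p = 1.0), and the genotypes overlapped. *Cpt1c*, a brain carnitine palmitoyltransferase, was at 10.2, 11.6 and 10.3 CPM in WT and 8.00, 8.67 and 10.4 CPM in *Chaserr*+/- embryos, and overlapped.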

How the data were processed

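Poly(A) RNA of whole embryos was made into libraries with the TruSeq stranded kit and read as paired ends. The authors deposited, for each library and gene, an RSEM expected count, a TPM and an FPKM, without normalization between libraries. They used a RefSeq annotation in which they edited the last exon of *Chaserr*, because RefSeq lets it overlap *Chd2*. Builds mm9 and mm10 are named in the submitters' notes. RSEM divides reads that match several genes, so rows of repeated genes are uncertain. Of 24990 rows, 374 join several genes.

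Expected counts were rounded, filtered with filterByExpr and scaled by TMM. The quasi-likelihood test of edgeR 4.0.16 (under R 4.3.3) compared the genotypes without covariates, and p-values were adjusted by Benjamini-Hochberg over all 14500 genes, with a threshold of 0.05. CPM are TMM-scaled, over 6 libraries for the comparison of genotypes and over 12 for that with E13.5, and log2 CPM used a prior count of 2. DESeq2 1.42.0 and limma-voom (limma 3.58.1) were alternatives. FPKM served to rank genes and TPM as an alternative for globin ratios. The total count was 21589962 to 31293072 per library, and a floor of 3 counts covers counting error only. Replicate numbers did not pair the libraries. The procedure was tested on simulated data.

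Lists of marker genes were described by counts and medians, with no test of a list. Named genes were the targets, genes called by edgeR or DESeq2, up to 10 of the smallest p in each direction without overlap and above an FPKM minimum of 1 (mean of the higher genotype), the first 4 members, the most abundant member and members with an unadjusted p under 0.05 of each list, the 10 of the largest spread, and all members of the CHD, locus, sex and study lists. The text gives a selection of them. Further genes in the text illustrate a list or pattern and were chosen after their values were seen. The members and lists were chosen with earlier results of these data known.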

Additional observations from a re-analysis of the deposited data

Results flagged for a closer look

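The effect of genotype differed between E9.5 and E13.5 embryos for 2 rows by the test of the interaction in edgeR. For *AI506816* the difference was -4.54 ± 0.192 on the log2 scale (SE, adjusted p = 8.05e-07), with a log2 fold change of 0.12 at E9.5 and 4.68 at E13.5, and each E13.5 *Chaserr*+/- library was above each E13.5 WT library. For the *Gm5512* row it was 8.36 ± 0.846 (adjusted p = 0.0237), with -0.14 at E13.5, and it had 0 counts in 3 of 3 E9.5 WT libraries. It is 1 of several copies of a repeated gene, and it passed in 3 of 12 fits that each left out 1 library (adjusted p 0.0312 to 0.115) and not with the replicate block (0.285). The cause of neither was tested.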

How the results depend on the processing

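With 3 libraries per genotype, small differences were not detectable at this spread, and a missed threshold does not show that values did not differ. The number of genes called was 0 by edgeR, 1 with no filter on low counts, 5 by DESeq2, 1 by limma-voom, 2 when both stages were fitted together, and 0 to 6 when 1 library was left out (5 without WT 2, 6 without Het 3). With Y-linked RNA as a covariate, an alternative chosen after seeing the data, it was 0, and the log2 fold change was 0.66 for *Chd2* and -0.75 for *Chaserr*. *Chd2* passed the threshold at 0.66 with no filter, 0.66 by DESeq2 and 0.67 with both stages, and was between 0.60 and 0.71 when 1 library was left out (adjusted p 0.00439 to 0.997). *Chaserr* passed at -0.86 by DESeq2 alone and was between -1.0 and -0.79 when 1 library was left out. The interaction of genotype and stage was called for 2 genes, for 1 with at least 10 counts in every library, for 1 with the replicate block and for 1 to 4 when 1 of 12 libraries was left out. *Gm5512* lost its call under the block (adjusted p = 0.285). Leaving out 1 library moved the median of heart genes from -1.10 to -0.0067, erythroid from -0.36 to 0.26, somite from -0.16 to 0.061, early neuron from -0.36 to -0.041, neural progenitor from -0.067 to 0.090, presomitic from -0.087 to -0.017 and close tandem genes from -0.027 to 0.028, and the coefficient of variation from 0.0852 to 0.137. The mean ratio of adult alpha globins to *Hba-x* was 0.723 in CPM and 0.796 in TPM. Deviations of libraries with the same number correlated at -0.111, 0.0449 and 0.0214, so the numbers did not pair them. The replicate block called 0 genes at E9.5 (461 at an unadjusted p under 0.05). No change of direction was recorded among the 29 genes followed across the alternatives. These were chosen for a small p, and many of them also for genotypes without overlap. A stable direction therefore largely followed from the choice and does not show that the results are robust. It does not extend to genes high in or absent from 1 library of each genotype. For *Dynlt1b* and *Hormad1*, the direction depends on the libraries kept. Leaving out 1 library turned the sign of the median of many lists, among them erythroid, somite, neural progenitor, early-stage and yolk sac genes, *Hox* groups 1 to 4 and close tandem genes. The covariate turned that of presomitic, p53, proliferation, placode and macrophage genes.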
